A study of Mus musculus with 46 samples.

Results

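Gene expression in the cecum was compared between mice fed a high fat diet containing inulin (HFD + inulin) and mice fed a low fat diet (LFD). The arrays were chosen by their titles, which gave 6 HFD + inulin and 5 LFD cecum arrays, 11 of the 46 arrays of the series and part of its 22 cecum arrays. All animals were male C57Bl/6 mice, 20 weeks old when the tissue was taken after 8 weeks on the diets. The HFD + inulin diet provided 45% of its energy as fat and held 10% inulin by weight, put in place of corn starch and cellulose. LFD provided 10% of its energy as fat and had no added inulin. The 2 diets thus differed in fat, in inulin and in the other carbohydrates, and the effects of these cannot be told apart by this comparison alone. The remaining cecum arrays came from mice on the high fat diet without added fiber (HFD, 6 arrays) and on the high fat diet with propionate and butyrate esters of inulin (HFD + inul PB, 5 arrays). HFD and LFD held more cellulose, itself a fiber, than the inulin diets. Each array measured total RNA of a piece of whole cecum with 1 dye (Cy3). Values below are normalised log2 signals, so a difference of 1 means a doubling. The labels do not say outright that each array is a separate mouse, and P values measure the spread between these arrays.

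Inulin is a chain of fructose units that mammalian enzymes do not digest, so it reaches the cecum, where bacteria ferment it to acetate, propionate and butyrate. The cecal wall is lined by absorptive colonocytes, which take up these acids together with salt and water, and by goblet cells, which secrete the gel-forming mucin of the mucus layer. Beneath them lie immune cells, muscle, vessels, nerves and, on the outer side, fat tissue, and all of these contribute RNA to a piece of whole cecum. In such tissue fewer cells of a type and less RNA per cell cannot be told apart. Genes that mark the cecal epithelium were bright on both diets: Car1, a carbonic anhydrase of colonocytes, had a mean of 18.18 ± 0.12 (SD, n = 6) on HFD + inulin and 18.07 ± 0.10 (SD, n = 5) on LFD. Tff3, a goblet cell peptide, had means of 16.73 and 16.82.

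A probe was called when the 2 diets differed by more than 1.5-fold with an unadjusted P below 0.01 in limma, which are the criteria used in the study. Of 55681 probes, 608 (1.09%) were called, 237 (0.426%) higher and 371 (0.666%) lower on HFD + inulin than on LFD. After Benjamini-Hochberg adjustment over all probes 113 (0.203%) remained below 0.05, with 42 higher and 71 lower, and this number ran from 32 without LFD 1 to 115 without HFD + inulin 1. With only the arrays of the 2 diets in the fit it was 16. HFD arrays enter the fit through the shared spread, and without HFD 5 the number was 234. HFD 5 stood apart in the summed signal of small intestine markers, at 19.63 against 17.53 to 17.74 on the other HFD arrays. The split of the calls depended on scaling: 39.0% of the called probes were higher under cyclic loess, 27.9% of 609 under cyclic loess over all pairs of arrays, and 66.9% of 815 when each array was scaled to its 75th percentile, which moved the median difference of all probes from 0.01 to 0.13. With 1 probe taken for each of 19395 genes with a RefSeq symbol of their own, 100 genes (0.516%) rose and 177 (0.913%) fell. The arrays of the 2 diets did not overlap for 455 of these genes (2.35%).

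**Figure D1:**
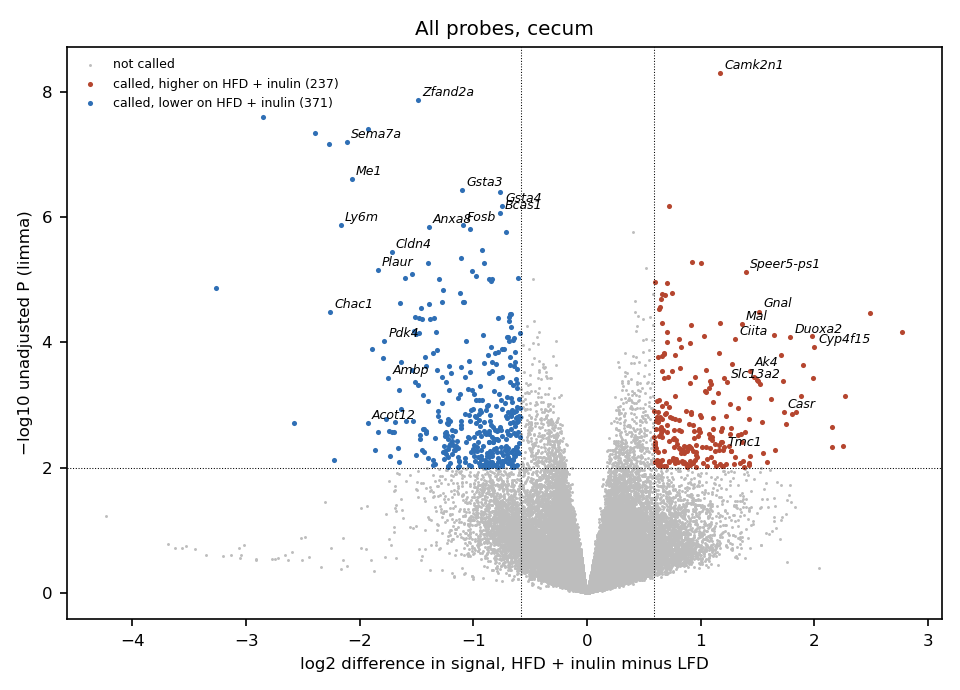
Log2 difference (HFD + inulin minus LFD, horizontal) against −log10 of the unadjusted limma P (vertical) for all probes measured in cecum. Dotted lines mark the fold and P criteria, and the 237 called probes that were higher lie on the right and the 371 that were lower on the left.

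Whole profiles overlapped. The difference between diets made up 11.1% of the summed squared distances among the 11 arrays. An exact permutation of the diets, which counted splits with a share at least as large, gave P = 0.197 (smallest possible 0.00216). Without LFD 4 the share was 12.5% (exact permutation P = 0.186). LFD 4 lay nearer to the HFD + inulin arrays than did the other LFD arrays. On a scale where 0 is the mean of the other LFD arrays and 1 the mean of the HFD + inulin arrays, its median over probes called without it was 0.53, and the same measure was 0.17, 0.39, 0.28 and 0.15 for LFD 1, 2, 3 and 5. Leaving LFD 4 out gave 690 called probes (263 higher, 427 lower), of which 468 were also called with it. The HFD + inulin arrays lay in columns 1 and 3 of the 3 slides and the LFD arrays in columns 2 and 4, so array column and diet cannot be told apart here. HFD shared its columns with HFD + inulin, and HFD + inul PB shared its columns with LFD, and their levels are given below for some of the genes only. Each slide held arrays of both diets. With slide as a block 606 probes were called. Of the called genes named below, 53 were examined by slide, and these differed in 1 direction on every slide. So did 97.4% of the called and 34.1% of the other probes, a description that the choice of called genes largely fixes.

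The smallest P of all named genes belonged to Camk2n1, an inhibitor of calcium/calmodulin-dependent protein kinase II. Its signal was 11.41, 11.52 and 11.78 (lowest, median, highest) on the HFD + inulin arrays and 10.40, 10.67, 10.22, 10.44 and 10.16 on LFD 1 to 5. Every HFD + inulin array was above every LFD array, and Camk2n1 was higher by 1.17 ± 0.12 (SE; adjusted P = 0.00028, limma). Its mean was 10.39 on HFD, in the columns of HFD + inulin, and 11.59 on HFD + inul PB, in the columns of LFD.

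Among the largest rises of genes whose diets did not overlap, Cyp4f15, a cytochrome P450 that hydroxylates fatty acids and eicosanoids, was 10.20, 10.50 and 10.89 on HFD + inulin and 7.84, 7.62, 8.997, 9.86 and 8.25 on LFD. LFD 4 was the highest of the LFD arrays and lay close to the lowest HFD + inulin array, without overlap. The rise was 2.00 ± 0.42 (adjusted P = 0.055), and 2.33 without LFD 4. Duoxa2, the maturation factor of the hydrogen peroxide producing oxidase DUOX2, had a signal of 10.88, 11.60 and 12.41 on HFD + inulin and 9.95, 9.89, 10.01, 9.87 and 9.39 on LFD. The groups were apart, with a difference of 1.79 ± 0.36 (adjusted P = 0.046, or 0.078 without LFD 4), and a second probe for Duoxa2 differed by 2.15. Mal, a raft protein of apical membrane traffic, was 16.24, 16.34 and 16.69 against 14.79, 14.73, 15.39, 15.47 and 14.93. It rose by 1.36 ± 0.26 (adjusted P = 0.036), with all LFD arrays below all HFD + inulin arrays.

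Gnal, a stimulatory G protein subunit best known from olfactory neurons, was 9.08, 10.03 and 10.93 on HFD + inulin and 8.02, 8.48, 8.70, 8.79 and 8.32 on LFD, a rise of 1.52 ± 0.28 (adjusted P = 0.03). Casr, the calcium sensing receptor, rose by 1.73 ± 0.46 (adjusted P = 0.18), Ak4, a mitochondrial adenylate kinase, by 1.43 ± 0.33 (adjusted P = 0.087), and Slc13a2, a sodium-coupled citrate and succinate transporter, by 1.23 ± 0.29 (adjusted P = 0.11). Speer5-ps1 rose by 1.40 ± 0.23 (adjusted P = 0.014), but it belongs to a multigene family whose copies the probe may not separate, and its other probes differed by 0.93 and 0.81 without being called. Tmc1, a channel subunit known from hair cells, was called higher by 1.19 ± 0.38 (adjusted P = 0.30). It was well above background on only 3 of 5 LFD arrays, so the size of this rise is uncertain. Its log2 difference lay between 0.48 and 1.32 among the alternatives. The Tmc1 call was lost without LFD 2 or 5 or HFD + inulin 1, 3 or 4. It was also lost under a changed normalisation (all-pairs loess) and a changed background correction (normexp). The diets did not overlap for any of these genes, which was a condition for naming them.

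Among the largest falls, Sema7a, a membrane-anchored semaphorin, had a signal of 9.10, 9.51 and 10.47 on HFD + inulin and 12.15, 11.02, 11.95, 11.54 and 12.05 on LFD. All LFD arrays were above all HFD + inulin arrays, and the difference was -2.11 ± 0.25 (adjusted P = 0.00054, limma). Ly6m, a lymphocyte antigen 6 family member, was 9.39, 9.87 and 10.56 against 12.65, 11.57, 12.71, 11.24 and 12.11, and fell by 2.17 (adjusted P = 0.005). Cldn4, a tight junction claudin, was 8.70, 8.92 and 9.88 against 11.37, 10.35, 10.94, 10.705 and 10.87. It fell by 1.72 with no overlap (SE 0.27, adjusted P = 0.0097). Plaur, the urokinase receptor, fell by 1.84 (adjusted P = 0.014), Anxa8, a membrane-binding annexin, by 1.40 (adjusted P = 0.005) and Ambp, the precursor of alpha-1-microglobulin and bikunin, by 1.75 (adjusted P = 0.098).

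Chac1, an enzyme that degrades glutathione and a target of the amino acid and unfolded protein stress responses, was 6.01, 6.99 and 7.61 on HFD + inulin and 9.02, 7.82, 8.00, 10.42 and 10.37 on LFD. The LFD arrays spread widely, with LFD 4 and 5 highest, yet none reached down to the HFD + inulin arrays (difference -2.26 ± 0.42, adjusted P = 0.03). Without LFD 4 the difference was -1.94 (adjusted P = 0.066). Zfand2a, a zinc finger protein induced by arsenite and other proteotoxic stress, was 10.77, 11.17 and 11.45 against 12.78, 12.35, 12.75, 12.75 and 12.69, and fell by 1.48 (SE 0.16, adjusted P = 0.00038). The wider list of endoplasmic reticulum folding and stress genes gave no calls: of 19 measured, 0 rose and 0 fell, with a median of 0.03 and 1 at P below 0.05 (limma). The brightest, Atf4, differed by 0.06 ± 0.10. Acot12, a cytosolic acetyl-CoA thioesterase, was well above background on 5 of 5 LFD arrays and on 0 of 6 HFD + inulin arrays, so the HFD + inulin side is only a bound, the lowest signal well above background on each array. With the main processing it was at least 1.81-fold higher on LFD (adjusted P = 0.20). Its log2 difference ran from -2.14 to -0.66 among the alternatives, so this bound depends on the processing.

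**Figure D2:**
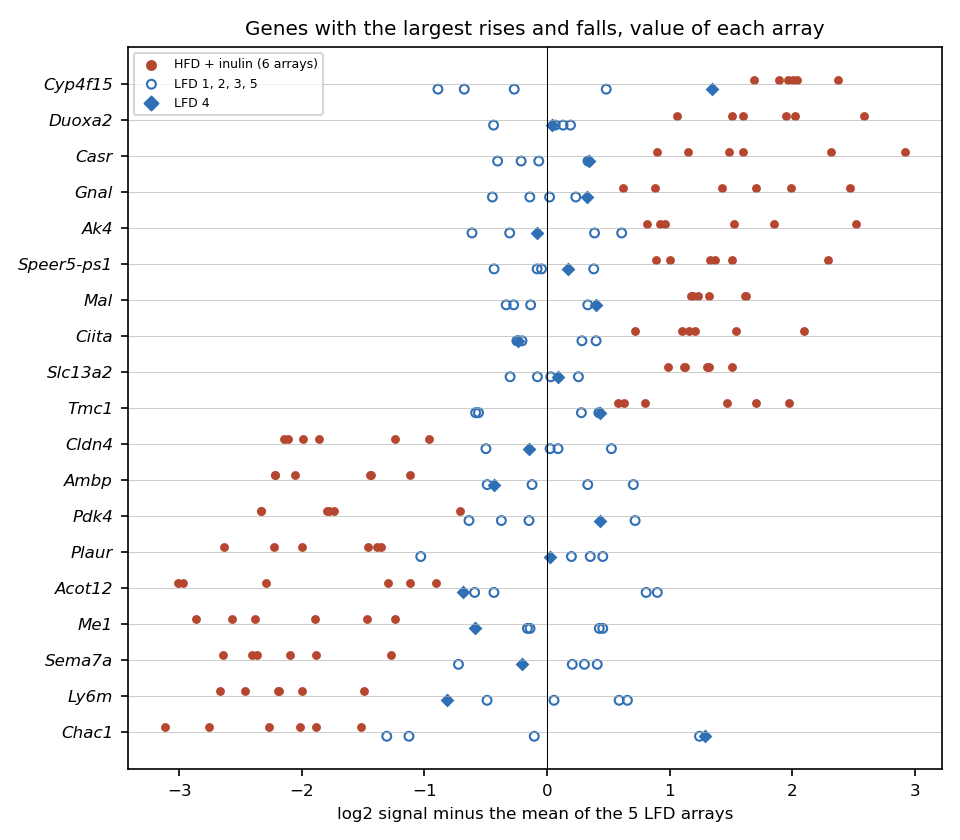
Log2 signal of each array minus the mean of the 5 LFD arrays (horizontal) for the 10 largest rises and 9 of the largest falls that met the naming rule. Filled circles are HFD + inulin, open circles LFD 1, 2, 3 and 5 and diamonds LFD 4. The diets do not overlap for any gene, and for Cyp4f15 LFD 4 (9.86) is the LFD array nearest to HFD + inulin.

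Genes of antigen presentation were higher on HFD + inulin. Major histocompatibility complex (MHC) class II molecules carry peptides to helper T cells. In mice their alpha and beta chains are H2-Aa, H2-Ab1 and H2-Eb1, Cd74 is their invariant chain, H2-DMa and H2-DMb1 load the peptide, and Ciita is the coactivator that switches on this gene set. Of 15 measured genes of class I and class II presentation, 9 rose and 0 fell, against 0.516% and 0.913% of all 19395 genes. All 15 were higher, against 48.6% of all genes, and the median difference was 0.94 against -0.01. An unadjusted P below 0.05 was found for 14, and for 4609 of all 55681 probes (limma). After adjustment over all probes 2 remained, Ciita and Psmb8. Without LFD 4, 7 rose and the median was 0.85, but the adjusted P of Ciita and Psmb8 became 0.10 and 0.076 (limma).

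Ciita had a signal of 7.04, 7.50 and 8.42 on HFD + inulin and 6.72, 6.61, 6.08, 6.09 and 6.12 on LFD. The groups were apart, and Ciita was higher by 1.30 ± 0.27 (adjusted P = 0.048). Psmb8, the immunoproteasome subunit that trims peptides for class I, lay between 12.72 and 13.36 on HFD + inulin (mean 13.01 ± 0.30, SD) and was 11.91, 12.49, 11.72, 12.03 and 11.80 on LFD. It rose by 1.02 ± 0.21 (adjusted P = 0.046), again without overlap. H2-DMb1 was 11.26, 12.71 and 13.25 against 11.23, 11.60, 11.50, 10.95 and 10.86. The lowest HFD + inulin value came from array 2, which lay within the LFD range, and the rise was 1.33 ± 0.35 (adjusted P = 0.17). The same array was lowest for H2-Aa (10.97), H2-Ab1 (14.77), H2-Eb1 (14.42), H2-DMa (9.47) and Cd74 (13.35). Differences of these 5 genes lay between 0.94 for H2-Eb1 and 1.27 for H2-Aa, all called but with adjusted P of 0.21 or more. H2-Aa and Cd74 were not called without LFD 3 or 4 or HFD + inulin 3, 5 or 6, nor H2-Aa without LFD 5. Psmb9, another immunoproteasome subunit, was called at 0.66 (adjusted P = 0.35), a call lost in 8 of the 11 fits that left out an array of these diets. The class I genes B2m and H2-K1 were higher by 0.55 and 0.41, below the fold criterion, with no overlap.

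**Figure D3:**
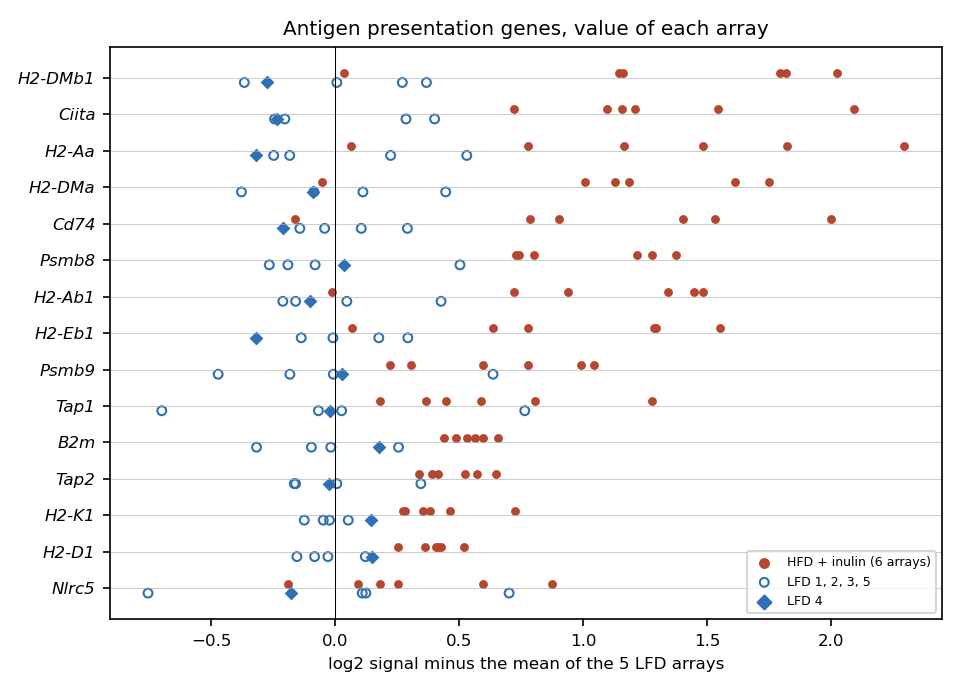
Log2 signal of each array minus the mean of the 5 LFD arrays (horizontal) for the 15 antigen presentation genes, symbols as in the plot of the largest rises and falls. Ciita and Psmb8 separate the diets, whereas for the class II chains 1 HFD + inulin array lies among the LFD arrays.

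The promoters of these genes were examined because class II genes share the X and Y boxes bound by the factors that recruit CIITA. RefSeq promoters (build GRCm38.p6, 250 bases before to 50 after the start) matched 10 of the 15 genes. The letters GATTGG of the Y box, an inverted CCAAT sequence, were searched on both strands and found for 9 of these 10 genes and in 16.1% of 32851 mouse promoters. The X box letters AGNAACNGATG were found for 2 genes, H2-DMb1 and H2-Eb1, and in 0.298% of promoters. Both motifs are in capitals in the stretches below, from 170 to 21 bases before the start of 3 class II genes that rose, and a match of letters is a description only.
H2-Aa, chr17:34287844-34287993 (minus strand): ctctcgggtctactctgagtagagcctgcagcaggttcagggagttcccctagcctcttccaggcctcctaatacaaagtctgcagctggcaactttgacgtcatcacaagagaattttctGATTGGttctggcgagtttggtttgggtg
H2-DMb1, chr17:34153021-34153170 (plus strand): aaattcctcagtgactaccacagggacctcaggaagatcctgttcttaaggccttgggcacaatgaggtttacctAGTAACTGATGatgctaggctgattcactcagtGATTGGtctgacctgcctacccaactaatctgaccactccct
H2-Eb1, chr17:34305697-34305846 (plus strand): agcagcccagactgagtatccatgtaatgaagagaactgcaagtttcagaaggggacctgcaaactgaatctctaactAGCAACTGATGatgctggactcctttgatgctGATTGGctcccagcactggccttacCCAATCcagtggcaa
The Y box letters start 49, 62 and 60 bases before the start of H2-Aa, H2-DMb1 and H2-Eb1. H2-Eb1 also holds them on the other strand, as CCAATC, nearer the start. H2-DMb1 and H2-Eb1 also hold the X box letters upstream of them.

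Immune cell markers gave no calls. Of the measured markers of B cells (10), plasma cells (7), T cells (14) and macrophages and dendritic cells (13), 0 rose and 0 fell, with medians of 0.14, 0.29, 0.15 and 0.12 and 0, 0, 1 and 1 genes at P below 0.05 (limma). Of these 10, 7, 14 and 13 markers, 10, 6, 10 and 10 were higher on HFD + inulin. Their summed signals nevertheless spread within diets: the B cell sum ranged from 9.90 to 11.19 on HFD + inulin and from 9.71 to 10.40 on LFD, and the macrophage and dendritic cell sum from 15.17 to 16.02 and from 15.08 to 15.45. Their most abundant genes were Cd22 and Itgam, which differed by 0.14 ± 0.19 and 0.40 ± 0.19. Jchain and Gzma, the brightest plasma cell and T cell genes, differed by 0.50 ± 0.38 and 0.40 ± 0.36. Interferon response genes also gave 0 calls of 16 measured, with a median of 0.04, and the brightest, Isg15, differed by 0.06 ± 0.39. The part of immune cell number in the class II difference was not tested.

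Some lipid synthesis genes were called lower on HFD + inulin. Of 18 measured genes of fatty acid and triglyceride synthesis, 0 rose, 4 fell (0.913% over all genes), 3 were higher and 1 remained after adjustment. An unadjusted P below 0.05 was found for 9, and for 4609 of all 55681 probes (limma). The median was -0.37 (6 fell without LFD 4, with a median of -0.39). Dgat2, the triglyceride-forming acyltransferase and brightest member, differed by -0.57 ± 0.20 and was called without LFD 4 (-0.66). Me1, the malic enzyme that supplies NADPH for fatty acid synthesis, was 9.09, 9.81 and 10.71 on HFD + inulin and 11.79, 12.41, 12.38, 11.37 and 11.81 on LFD. It fell by 2.07 with no overlap (SE 0.27, adjusted P = 0.0017), and its mean on HFD was 10.89. Fasn, fatty acid synthase, was 7.84, 8.24 and 8.87 against 8.91, 9.60, 9.68, 8.54 and 8.97. Only LFD 4 reached into the HFD + inulin range, and Fasn fell by 0.86 (adjusted P = 0.088). The mean of Fasn on HFD was 8.18, so that HFD + inulin differed from HFD by 0.09 (adjusted P = 0.85) and LFD differed from HFD by 0.96 (adjusted P = 0.60). Scd2, a stearoyl-CoA desaturase, fell by 0.85 (adjusted P = 0.19), with LFD 5 (13.50) inside the HFD + inulin range.

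Scd1, the main stearoyl-CoA desaturase of fat and liver, was 8.58, 9.02 and 12.43 against 12.62, 12.97, 13.49, 10.31 and 12.96. Here HFD + inulin 2 and 6 lay above LFD 4, and Scd1 fell by 2.58 (SE 0.72, adjusted P = 0.20), a difference that was -3.12 without LFD 4. Scd1 moved with the fat cell markers. Adipoq, the adipocyte hormone adiponectin, was 9.22, 12.42, 3.50, 3.61, 6.81 and 12.72 on HFD + inulin 1 to 6 and 11.50, 11.98, 13.05, 2.50 and 11.95 on LFD 1 to 5. Cfd (adipsin) and Plin1 (perilipin 1) were likewise lowest on LFD 4 and on HFD + inulin 3 and 4. Of 14 adipocyte markers 0 rose and 0 fell, with a median of -1.08 (-1.79 without LFD 4, when 1 fell). Without HFD + inulin 3 or 6, 1 was called. Only 8 of the 14 were well above background on all arrays of at least 1 of the 2 diets, so dim members enter the median. The summed signal of the 14 ran from 14.49 to 17.22 on HFD + inulin and from 14.76 on LFD 4 to 17.55 on LFD. Its most abundant gene, Pnpla2, differed by 0.02 ± 0.13. The part of attached fat in the lipid synthesis calls was not tested.

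Of 22 cholesterol synthesis and uptake genes, 0 rose and 1 fell (0.516% and 0.913% over all genes). Of the 22, 21 were lower, with a median of -0.27 and 5 at an unadjusted P below 0.05 in limma (2 were called without LFD 5). The gene that fell is a regulator controlled by cholesterol supply and not an enzyme of synthesis. Insig1, which holds the sterol sensor in the endoplasmic reticulum, was 6.95, 7.60 and 7.89 against 8.46, 9.02, 9.10, 8.11 and 8.27 and fell by 1.07 with no overlap (adjusted P = 0.048). Hmgcs1, a synthase of the mevalonate pathway and the brightest member, differed by -0.25 ± 0.22 without a call.

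Among 36 fatty acid oxidation and PPAR target genes 0 rose and 2 fell (0.516% and 0.913% over all genes), with a median of -0.13. Fabp2, a fatty acid binding protein and the brightest member, differed by -0.12 ± 0.10. Pdk4, the kinase that switches off pyruvate dehydrogenase, was 9.06, 9.61 and 10.68 on HFD + inulin and 11.25, 10.76, 11.02, 11.83 and 12.11 on LFD, and fell by 1.78 (adjusted P = 0.048). The groups were apart by a narrow margin, between HFD + inulin 1 and LFD 2. Creb3l3, a membrane-bound transcription factor of intestine and liver, was 10.85, 11.42 and 12.08 against 12.80, 12.58, 13.14, 12.75 and 12.82. It fell by 1.35 (SE 0.26, adjusted P = 0.032), and its mean on HFD was 12.82, equal to that on LFD to 2 decimals. The 4 genes Me1, Pdk4, Creb3l3 and Insig1 had adjusted P below 0.05. Without LFD 4 it was 0.11 for Pdk4 and 0.054 for Creb3l3, while Me1 and Insig1 stayed below 0.05 (limma).

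Some goblet cell genes were called lower on HFD + inulin. Of 21 measured markers, 0 rose, 6 fell (0.913% over all genes), 2 were higher and 2 remained after adjustment. An unadjusted P below 0.05 was found for 13, and for 4609 of all 55681 probes (limma), and the median was -0.32. The number that fell was 7 without LFD 4 but 2 without LFD 2, which was the highest LFD array for Muc2. Bcas1, whose function in goblet cells is little known, was 10.26, 10.45 and 10.77 against 11.30, 11.52, 11.27, 10.96 and 11.30, a fall of 0.77 with no overlap (SE 0.11, adjusted P = 0.0037). Muc2, the gel-forming mucin of the mucus layer, was 13.63, 14.10 and 14.37 against 14.98, 15.63, 14.40, 14.33 and 14.78. LFD 4 lay inside the HFD + inulin range, and Muc2 fell by 0.79 (SE 0.23, adjusted P = 0.23; exact permutation P = 0.00433). Capn9, a digestive tract calpain, fell by 0.67 (adjusted P = 0.037), while its dimmer second probe differed by -0.54 without a call. Tpsg1, a tryptase gene, fell by 0.83. Muc2 and Tpsg1 were not called without LFD 2, with differences of -0.59 and -0.64, nor Capn9 without HFD + inulin 6 (-0.58). Agr2, the disulfide isomerase that mucin folding requires, and Spdef, the transcription factor of goblet cell maturation, were also called, with differences of -0.67 and -0.60 (adjusted P = 0.30 and 0.31). Without LFD 2 they were -0.52 and -0.46 and not called. Agr2 was also not called without LFD 1 or HFD + inulin 2 or 4, nor Spdef without LFD 1 or HFD + inulin 1, 2 or 6.

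Not every secreted goblet cell product was called: Tff3 differed by -0.09 ± 0.13 and Zg16, the brightest marker, by -0.27 ± 0.13, neither called. The summed goblet signal was 19.16 to 19.55 on HFD + inulin and 19.64, 19.79, 19.65, 19.38 and 19.55 on LFD. The sum over absorptive colonocyte markers was higher on HFD + inulin, with a mean of 20.61 against 20.44, and its part in the goblet cell differences was not tested. LFD 4 was the lowest LFD array in this sum. The difference in Muc2 between LFD and HFD was -0.14 (adjusted P = 0.93), or 0.054 without HFD 5, the highest HFD array for Muc2, and HFD + inulin differed from HFD by -0.93 (adjusted P = 0.036).

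Of 22 mucin glycosylation and sulfation genes, 0 rose and 3 fell (4 without LFD 4), against 0.516% and 0.913% of all genes. Of the 22, 9 were higher, and the median was -0.06. The summed signal of the list was higher on HFD + inulin, with a mean of 18.69 against 18.45. Papss2, which makes the sulfate donor and was the brightest member, differed by 0.44 ± 0.23 (0.53 without LFD 4), not called. Chst4, a sulfotransferase of N-acetylglucosamine, fell by 0.67 (adjusted P = 0.031) and did not overlap. B3gnt6, which builds the core 3 mucin glycan, fell by 0.86 and B3galt5, a galactosyltransferase, by 1.74, both with adjusted P above 0.05. Without HFD + inulin 2 the count was 1, Chst4 then differing by -0.58, and B3galt5 was called in only 3 of the 11 fits that left out an array of these diets. Membrane-bound mucins gave 0 calls of 5 measured, and 1 without LFD 2 or LFD 3. Of these Muc13 was 17.38, 17.51 and 17.78 against 16.72, 17.22, 17.17, 17.06 and 16.80, a difference of 0.55 ± 0.13 that fell short of the fold criterion with no overlap between diets. Muc4 differed by 0.47 ± 0.28 (adjusted P = 0.70), with LFD 4 (14.67) above every HFD + inulin array. Without LFD 4 it differed by 0.72 (adjusted P = 0.40), not called.

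The cytochrome P450 and conjugation list was mixed: of 43 measured genes 3 rose (4 without LFD 4) and 4 fell, against 0.516% and 0.913% of all genes. Of the 43, 15 were higher. An unadjusted P below 0.05 was found for 17, and for 4609 of all 55681 probes (limma). Cyp2c55, the brightest, differed by -0.42 ± 0.25 and was not called. The falls were mainly in the alpha class glutathione S-transferases, which detoxify lipid peroxidation products. Gsta3 was 10.16, 10.90 and 11.10 against 12.17, 11.66, 11.98, 11.92 and 11.79, and fell by 1.10 (SE 0.15, adjusted P = 0.0022), and a second probe gave -0.93. Gsta4 was 8.99, 9.23 and 9.45 against 10.11, 9.96, 10.13, 9.79 and 9.96, and fell by 0.75 (adjusted P = 0.0031). Gsta2 was 10.21, 11.30 and 11.38 against 13.06, 12.55, 12.17, 11.49 and 12.88, and fell by 1.39 (adjusted P = 0.025). None of the 3 overlapped between diets, although LFD 4 came within 0.2 of the HFD + inulin arrays for Gsta2. Ces2a, a carboxylesterase, fell by 1.14 (adjusted P = 0.26), a call lost without LFD 1 or 3 or HFD + inulin 5. The rises were Cyp4f15, described above, and Cyp2d9 and Cyp2d12, by 1.19 and 0.60 (adjusted P = 0.22 and 0.29), the last not called without LFD 1 or HFD + inulin 2 or 5. Members of the Gsta and Cyp2d families are close in sequence, and probes may not separate them.

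Genes for the uptake and use of short-chain fatty acids moved in both directions, with 1 rise and 2 falls among 18 measured. Over all genes 0.516% rose and 0.913% fell. Slc5a8, a sodium-coupled transporter of butyrate and other monocarboxylates, was 11.18, 11.26 and 12.14 against 10.56, 10.08, 10.19, 10.96 and 10.32. It rose by 1.03 ± 0.25 (adjusted P = 0.13), with LFD 4 the LFD array nearest to HFD + inulin. Acsm3, a mitochondrial medium-chain acyl-CoA synthetase, fell by 0.84 and Oxct1, the enzyme of ketone body use, by 0.71, a call lost without LFD 1, 2 or 5 or HFD + inulin 4 or 5. The receptors Ffar2 and Ffar3 differed by -0.15 ± 0.23 and 0.13 ± 0.16 and were not called.

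Of 27 electrolyte and water transport genes, 1 rose and 2 fell (0.516% and 0.913% over all genes). Car4, a surface carbonic anhydrase, rose by 0.75 ± 0.17 (adjusted P = 0.087), though LFD 4 (13.82) lay above the lowest HFD + inulin array (13.74). Scnn1a, the alpha subunit of the epithelial sodium channel, reached 11.72 at most on HFD + inulin (mean 11.36 ± 0.29, SD) and was 12.04, 11.78, 12.10, 12.02 and 11.93 on LFD, and fell by 0.61 (adjusted P = 0.23). It was not called without LFD 3 or HFD + inulin 1, 2 or 4. The other call, Slc9a3, was well above background on 0 of 6 HFD + inulin and 1 of 5 LFD arrays, so no fold is given. Slc26a3, the chloride and bicarbonate exchanger of colonocytes, differed by 0.51 ± 0.26. Besides Cldn4, the only other call among 18 tight junction genes was Cldn8, which fell by 0.84 (adjusted P = 0.31), where 0.913% of all genes fell. Cldn8 was no longer called without LFD 4, when it differed by -0.77 (adjusted P = 0.47), nor without LFD 1, 3 or 5 or HFD + inulin 4, 5 or 6. Cldn5 and Cldn23 differed by -0.56 ± 0.36 and -0.09 ± 0.18, and Cldn7, the brightest, by 0.08 ± 0.07.

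Among 21 antimicrobial and host defence genes 1 rose, Duoxa2, and 1 fell (0.516% and 0.913% over all genes), and 4 were called without HFD + inulin 3 or without HFD 5. Reg4, a regenerating islet-derived lectin, was 14.20, 14.61 and 14.80 against 15.70, 15.68, 14.95, 15.01 and 15.38 and fell by 0.76 with no overlap (adjusted P = 0.15). The acute phase genes Saa1 and Saa2 were higher by 0.83 ± 0.39 and 0.94 ± 0.36, with adjusted P of 0.59 and 0.46 and no call, and Pigr, the antibody transporter and brightest member, by 0.43 ± 0.19. Immediate early genes gave 1 rise and 2 falls of 16 (0.516% and 0.913% over all genes). Fosb, a subunit of the transcription factor AP-1, was 6.60, 6.89 and 7.11 against 8.21, 7.90, 8.22, 7.67 and 7.90, a fall of 1.09 with no overlap (adjusted P = 0.005). Atf3, a stress-induced repressor, fell by 1.12 (adjusted P = 0.13) and Dusp1, a phosphatase of MAP kinases, rose by 0.61 (adjusted P = 0.22), a call lost without LFD 5 or HFD + inulin 3, 4 or 6. Atf3 was 9.49 to 10.98 on HFD and 9.08 to 10.99 on HFD + inulin, in columns 1 and 3. In columns 2 and 4 it was 10.65 to 11.05 on HFD + inul PB and 10.98 to 11.42 on LFD. Array column and diet cannot be told apart for this call. The brightest, Klf4, differed by 0.12 ± 0.16.

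Tex19.1, a germline gene that restrains retrotransposons and was discussed in the study, was 8.29, 9.62 and 10.55 on HFD + inulin and 6.72, 5.84, 7.48, 9.32 and 7.27 on LFD. LFD 4 lay within the HFD + inulin range, the other 4 LFD arrays below it. The rise was 2.27 ± 0.57 (adjusted P = 0.14; exact permutation P = 0.0108), and 2.77 without LFD 4. Rec8, a meiotic cohesin subunit, rose by 0.67 (adjusted P = 0.30), and these were the 2 calls among 16 germline genes (0.516% of all genes rose). Only 3 of the 16 were well above background on all arrays of at least 1 of the 2 diets. Rec8 was not called without LFD 1 or 2 or HFD + inulin 4, 5 or 6. Of the 16 cecal genes that the study discussed 15 had a probe, and 2 rose (Tex19.1, Slc5a8) and 2 fell (Cldn4, Muc2). That list was chosen on these samples and is not independent evidence of a direction. Enho, which encodes adropin, differed by 0.06 ± 0.28, and Cfd by -2.11 ± 2.31, with LFD values of 14.38, 14.77, 15.86, 3.36 and 14.50 (-4.41 without LFD 4, not called).

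Proliferation and stem cell, smooth muscle, fibroblast and endothelial markers had 0 rises and 0 falls of 15, 12, 12 and 10 measured genes, with medians of -0.12, 0.11, 0.00 and -0.02. Their brightest members Mki67, Myl9, Dcn and Egfl7 differed by 0.02, -0.01, -0.01 and -0.06. Absorptive colonocyte markers gave 1 rise (Car4) and 1 fall (Slc9a3) of 18, against 0.516% and 0.913% over all genes. Of these 18 markers 15 were higher on HFD + inulin, with a median of 0.10. Their summed signal did not overlap between diets, at 20.55 to 20.78 on HFD + inulin and 20.42, 20.42, 20.498, 20.40 and 20.47 on LFD, and its most abundant gene was Guca2a. Erythrocyte, small intestine, exocrine pancreas and liver markers gave 0 calls of 5, 8, 7 and 7, and their brightest members Hba-a1, Fabp2, Cela1 and Ttr differed by -0.39, -0.12, 0.02 and -0.48. Tuft cell, mesothelium and mast cell markers gave 0 calls of 11, 7 and 9, with medians of 0.06, -0.12 and 0.30 and brightest members Ptgs1, Krt7 and Kit at 0.15, -0.50 and -0.20. Only 6, 2 and 5 of them were well above background on all arrays of at least 1 of the 2 diets. Without LFD 4, 1 tuft cell marker rose and 1 mesothelium marker fell, and 1 tuft cell marker was called without HFD + inulin 6.

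**Figure D4:**
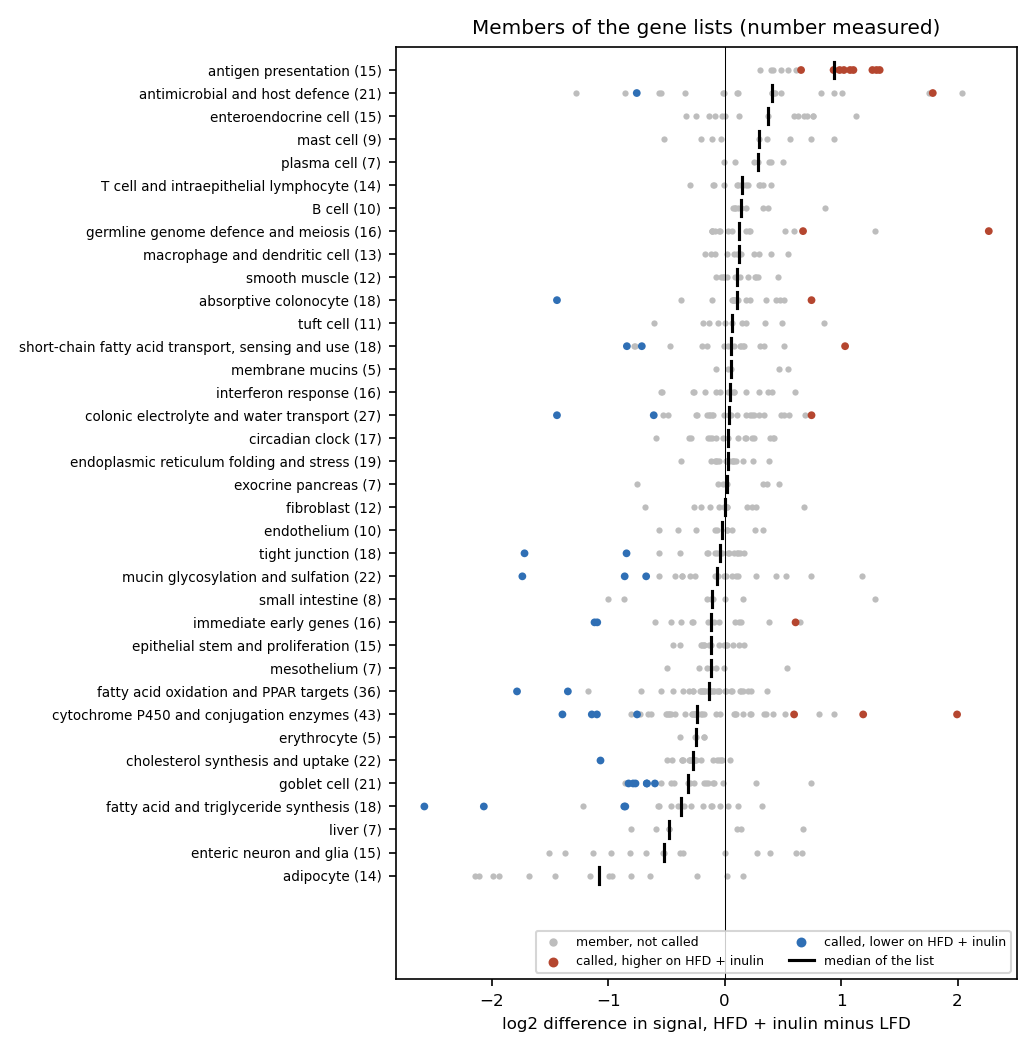
Log2 difference (HFD + inulin minus LFD, horizontal) of every measured member of each gene list, with the list's median as a bar and the number measured in brackets. Red points were called higher, blue points called lower and grey points were not called. Antigen presentation has the highest median (0.94) and adipocyte markers the lowest (-1.08), the latter with 0 calls. Lists include members that were not well above background.

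The levels on the other cecal diets show where LFD and HFD + inulin stood. These comparisons share arrays with the one above and are no independent support. Against HFD, 1375 probes (2.47%) were called for HFD + inulin and 356 (0.639%) for LFD. The study, with its own processing, reported fewer probes for both comparisons at the same criteria. After adjustment 878 and 0 were below 0.05 (the 878 became 407 without HFD 6 and 458 without HFD 4). For LFD 2919 probes had an unadjusted P below 0.05 in limma. For Camk2n1, Sema7a, Bcas1 and Gsta2, LFD differed from HFD by -0.01, -0.01, -0.06 and -0.05 and HFD + inulin differed from HFD by 1.16, -2.12, -0.83 and -1.45. For Me1 the 2 diets differed from HFD in opposite directions, LFD by 1.06 (adjusted P = 0.67) and HFD + inulin by -1.01 (adjusted P = 0.051). Zfand2a did the same, by 0.77 and -0.71. For Ciita the differences from HFD were -0.67 for LFD (adjusted P = 0.84) and 0.63 for HFD + inulin (adjusted P = 0.24), the latter 0.84 and called without HFD 5 and the former -0.80 and called without HFD 4. For the class II genes H2-Aa, H2-Ab1, H2-Eb1 and Cd74, LFD differed from HFD by -0.89, -0.72, -0.71 and -0.82 and HFD + inulin by 0.38, 0.26, 0.23 and 0.26. HFD 5 was the highest HFD array for H2-Eb1, at 16.17, with the others between 14.75 and 15.01. Without HFD 5 the 4 differences were -0.52, -0.47, -0.48 and -0.53 for LFD and 0.75, 0.52, 0.45 and 0.55 for HFD + inulin. H2-Ab1 on LFD was called without HFD 4 (-0.84). For Cyp4f15 both diets were above HFD, LFD by 1.52 and HFD + inulin by 3.52.

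HFD + inul PB, the other inulin diet, differed from HFD + inulin at 447 probes (0.803%), 12 of them below 0.05 after adjustment. Its means for Camk2n1, Mal, Gnal and Cyp4f15 were 11.59, 16.35, 10.32 and 10.23, against 11.55, 16.42, 9.98 and 10.51 on HFD + inulin. For Sema7a, Me1, Bcas1 and Gsta2 they were 10.09, 10.13, 10.34 and 10.87, against 9.63, 9.88, 10.51 and 11.04. For Fosb and Anxa8 the mean on HFD + inul PB was above that on HFD + inulin by 0.72 (adjusted P = 0.23) and 0.75 (adjusted P = 0.45). These are examples, and other named genes also differed, in both directions. Tex19.1 was 10.57 to 11.35 on HFD + inul PB and 8.29 to 10.55 on HFD + inulin, and Pdk4 was 10.05 to 11.23 and 9.06 to 10.68. Zg16 was lower, at 16.77 to 17.05 against 17.19 to 17.77.

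**Figure D5:**
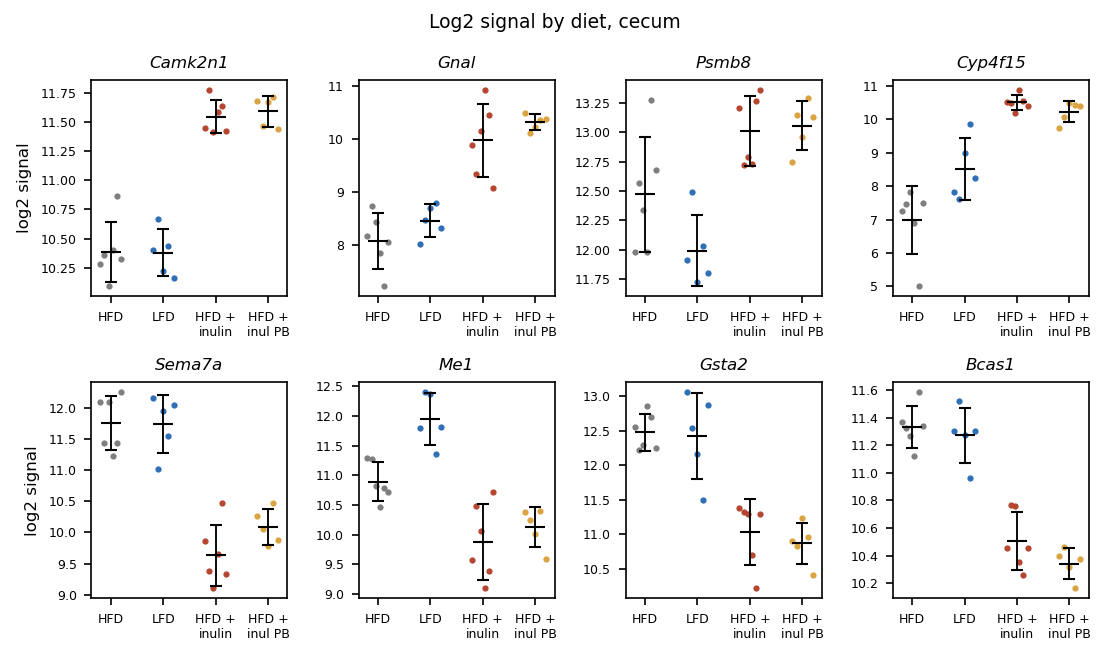
Log2 signal (vertical) of 8 genes on the 4 cecal diets, points for arrays, the horizontal mark for the mean and the bar for the SD (6 HFD, 5 LFD, 6 HFD + inulin and 5 HFD + inul PB arrays). Camk2n1, Sema7a, Gsta2 and Bcas1 have like means on HFD and LFD, whereas Me1 is highest on LFD (11.95) and lower on HFD + inulin (9.88) than on HFD (10.89).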

How the data were processed

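Cecum RNA was labelled with Cy3 and hybridised to 1-colour Agilent mouse arrays by the authors. The deposited scanner files hold the intensity of each of 62976 spots, processed by Agilent Feature Extraction 10.7.3.1 (background subtracted), and probes are placed on mm9. The deposited value table is on a log2 scale, made by the authors in R with limma by cyclic loess with identical probes averaged; the background treatment is not given in the sources used here, and it served as an alternative only. Its 24 liver columns were not used.

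Here log2 processed intensity of non-control, non-outlier spots was normalised by cyclic loess (fast method, span 0.7, 3 iterations) over 22 cecum arrays and averaged per probe (55681 probes). limma 3.58.1 in R 4.3.3 was fitted to all 4 diets without covariates, and the contrast HFD + inulin minus LFD was tested with Benjamini-Hochberg adjustment. Single genes were also tested by two-sided exact permutation over the 11 arrays. RefSeq symbols matched 27509 probes, and the probe with the highest mean stood for a gene. Between 48.4% and 55.3% of probes were well above background on the HFD + inulin arrays and between 51.9% and 55.1% on the LFD arrays, and the number of arrays limits the precision. Of 231 pairs of cecum arrays 0 were identical.

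Named genes were the 10 largest rises and falls among called genes that were well above background on all arrays of either diet and did not overlap, the genes discussed in the study, up to 4 called members and the brightest member of each list, and up to 10 genes by smallest adjusted P. Further list members are named where a list is described, chosen after their values were seen. Some genes are not reported here and were left out of the lists. Members and lists were chosen with earlier results of these data known. The fit was tested on simulated data, and the outcome is not given here. Alternatives changed normalisation, background correction, spot and probe filters, the arrays in the fit, and slide, row, replicate number or array weights. For normexp (offset 50) the median signal was used because the files hold no mean signal column.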

Additional observations from a re-analysis of the deposited data

Results flagged for a closer look

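Within diets, single arrays lay far from the others for 9 of 128 gene and diet groups examined, by Dixon's test at the 95% level, and chance alone gives about 1 in 20. LFD 4 was such an array for Muc4 (14.67, the next LFD array at 13.56), Cldn5 (8.59, next 9.49), Cfd (3.36, next 14.38) and Scd1 (10.31, next 12.62). LFD 5 stood apart for Duoxa2 (9.39, next 9.87) and LFD 2 for Zfand2a (12.35, next 12.69). On HFD + inulin, array 1 stood apart for Pdk4 (10.68, next 9.66), array 4 for Gsta3 (10.16, next 10.81), and array 6 for Slc9a3 (4.30, next 3.52). Slc9a3 was well above background on 0 of the 6 arrays. What set these arrays apart was not tested.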

How the results depend on the processing

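The 608 calls became 266 with normexp, 306 without background correction and 305 with the authors' values, and lay between 533 and 718 when single arrays were left out. The 113 adjusted calls were less stable: 62 after scaling to the 75th percentile, 215 over probes well above background, 16 with only the arrays of the 2 diets, 47 with slide and row as blocks, 212 with array weights, and 32 to 115 when single arrays were left out (62, 51 and 64 without HFD + inulin 3, 4 and 6, and 32, 61, 59 and 42 without LFD 1, 2, 3 and 5). Further alternatives, chosen after seeing the data, gave 10 (without LFD 4, 2 diets only), 45 (without HFD + inulin 4 and 5) and 82 to 234 (single HFD arrays left out, 234 without HFD 5). There, LFD minus HFD ran from -0.068 to 0.088 for Camk2n1, -0.12 to 0.088 for Sema7a, -0.11 to 0.023 for Gsta2 and -0.23 to 0.054 for Muc2, and so changed sign. The cause was not tested, beyond fewer arrays or probes in the fit. With the replicate number as a block 708 probes were called and 59 remained after adjustment, but equal numbers did not mark paired arrays (correlations of -0.013, 0.52, 0.0050, 0.20 and 0.13). Separation of whole profiles had an exact permutation P between 0.0996 and 0.462 under the alternatives of normalisation, background, spot and probe filters and arrays left out, and was not computed with blocks or array weights. Of 53 called genes tallied here, 35 were called under every alternative run, and 52 without LFD 4. The tally left out H2-Aa, H2-Ab1, H2-DMa, Cd74, Psmb9, Agr2, Spdef, Ces2a, Cyp2d9 and Cyp2d12, which were named where their lists are described. Among these left-out genes, H2-Aa, Cd74 and Psmb9 were not called without LFD 4. Among 2047 pairs of gene and alternative, 1955 kept direction and call, 81 lost the call, 4 gained it and 7 turned, all in uncalled genes: Cldn23 (0.020 without LFD 4, with all diets or 2; -0.17 to 0.020 with single arrays left out) and Enho (-0.19 to 0.16 with single arrays left out, negative without HFD + inulin 3, HFD + inulin 5 or LFD 2, -0.073 with array weights, -0.14 without HFD + inulin 4 and 5). Calls over all lists (47) ranged from 40 to 58. Some printed differences also shrank under an alternative: Casr from 1.73 to 0.97, Ciita from 1.30 to 0.83 and Oxct1 from -0.71 to -0.38. Dim probes limit the values of Acot12, Tmc1 and Slc9a3, and not of these alone. Some printed values of Cfd (3.36 on LFD 4), Adipoq and Prph lay below 5.22, the mean bound of Acot12 on HFD + inulin. Casr lay near it on LFD, at 5.17 to 5.92.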

Other observations

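Markers of enteroendocrine cells, which include hormone genes and other genes, gave no call but had a positive median. Of the 15 measured, 11 were well above background on all arrays of at least 1 of the 2 diets. Of 15 measured, 0 rose and 0 fell and 9 were higher, with a median of 0.37 and 5 at an unadjusted P below 0.05 (limma). Pyy, the peptide YY gene, was 9.86, 10.01, 10.85, 8.93, 10.58 and 9.70 on HFD + inulin 1 to 6 and 8.67, 9.93, 9.01, 9.62 and 8.93 on LFD 1 to 5, a difference of 0.76. Gcg, which encodes glucagon-like peptide 1, also differed by 0.76. Sct (secretin), the brightest member, went the other way, by -0.34 ± 0.10, and the summed signal was lower on HFD + inulin, with a mean of 15.66 against 15.82. The diets overlapped for Pyy, with LFD 2, 3 and 4 within the HFD + inulin range. The number called changed with single arrays, to 4 without HFD + inulin 4, 5 without LFD 2 and 3 without HFD 5.

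Enteric neuron and glia markers had a median of -0.52, with 0 rises and 0 falls of 15. Prph, the peripherin of peripheral neurons, ranged from 3.55 to 8.30 on HFD + inulin and was 7.19, 9.41, 8.34, 7.54 and 7.51 on LFD 1 to 5, with the lowest value on HFD + inulin 4, and 3 markers were called without HFD + inulin 6. The brightest marker, Snap25, differed by 0.39 ± 0.20 in the opposite direction. Circadian clock genes, which follow the time of day at which tissue is taken, gave 0 calls of 17 (1 without LFD 2) with a median of 0.03 and 2 at an unadjusted P below 0.05 (limma). Tef, the brightest, differed by 0.39 ± 0.32.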
